A study of Homo sapiens with 6 samples.

Results

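To describe how the genes for lactate export and extracellular pH were expressed in the 2 zones of an orthotopic breast tumor, 8 genes were followed among the 60671 annotated genes of the deposited expression matrix. They were chosen by name and not by a rule on their values, although earlier results of these data were known. They were the monocarboxylate transporter genes SLC16A1 (MCT1), SLC16A3 (MCT4) and SLC16A7 (MCT2), and BSG (basigin), the chaperone of MCT1 and MCT4. The others were the carbonic anhydrase genes CA2, CA9 and CA12, and the sodium bicarbonate cotransporter gene SLC4A7 (NBCn1). All 8 had a row in the matrix. The samples were tumors of MDA-MB-231, an established human triple-negative breast cancer cell line labelled wild type, grown in the mammary fat pads of female NSG mice, which lack T cells, B cells and natural killer cells and were bought at 6 to 8 weeks of age. No other genotype and no treatment was given in the labels of these samples, so the groups differed in the zone of tissue: 3 samples were core tissue (tumor core, TC) and 3 were margin tissue (tumor margin, TM), with 3 mice per group in the study's description. Whether the core and margin samples came from the same mice was not given in the sources used here. All tumors came from a single line, and tissue was taken whole, with the host's stroma and vessels in it.

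Glycolytic tumor cells release lactate together with protons through monocarboxylate transporters, which reach the cell surface only with a chaperone such as basigin. MCT4 is known as the exporter of glycolytic cells and MCT1 as a transporter used for both uptake and release. Carbonic anhydrases interconvert carbon dioxide with bicarbonate and protons, CA IX and CA XII outside the cell and CA II in the cytosol, and NBCn1 brings bicarbonate into the cell to buffer acid. CA9 and SLC16A3 are textbook targets of hypoxia-inducible factors, and MDA-MB-231 is known for having little MCT1.

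Values were TPM, a measure of transcript abundance corrected for transcript length, which allows levels of different genes to be compared within a sample, and depth was unknown. TC was compared with TM by limma on log2(TPM + 1), with an adjusted p-value under 0.05 as the limit for a call. A gene was tested if 3 or more samples reached 1 TPM, which held for 13861 genes. The labelled line was checked against its markers: VIM was at 3797 to 5283 TPM and the keratin gene KRT8 at 356 to 447 TPM. The hormone receptor genes ESR1 and PGR stayed at or under 0.13 and 0.22 TPM. In the same list of receptor and luminal markers, ERBB2 was at 22.3 to 40.7 TPM. GATA3 was at 2.02 to 3.9 TPM and FOXA1 at 2.06 to 4.17 TPM, so not all of the list was near 0. The TM samples were not alike. The summed TPM of 15 skeletal muscle markers was 274.8 and 693.8 in TM replicates 1 and 2 and 6.18 in TM replicate 3, against 10.2 to 13.4 in TC, and that of 10 fibroblast markers was 483.5, 1026 and 91.2 in the TM replicates, against 67.9 to 230 in TC. The column of TM replicate 3 summed to 994381, and those of the other samples to 1000000. The median difference of all tested genes, TC minus TM, was -0.14 on the log2 scale, and it was 0.021 after rescaling by median-of-ratios factors and 0.014 after quantile normalization.

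Of the 8 genes, 6 passed the filter on low values, and SLC16A1 and SLC16A7 did not. The number called was 0 of 6, beside 19 of 13861 genes (0.137%) in the whole matrix, and the number at an unadjusted p-value under 0.05 was also 0 of 6 (limma), beside 16.2% of all tested genes (1.93% higher and 14.2% lower in TC). The TC and TM values overlapped in all 8 genes, where 22.2% of tested genes had groups that did not overlap (3.28% higher and 18.9% lower in TC). The difference was positive for CA9, SLC4A7 and SLC16A3 and negative for BSG, CA12 and CA2, with a median of 0.054, but the signs of BSG and CA12 turned with the scaling of the samples. In every alternative, 0 of the genes fitted there were called.

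**Figure D1:**
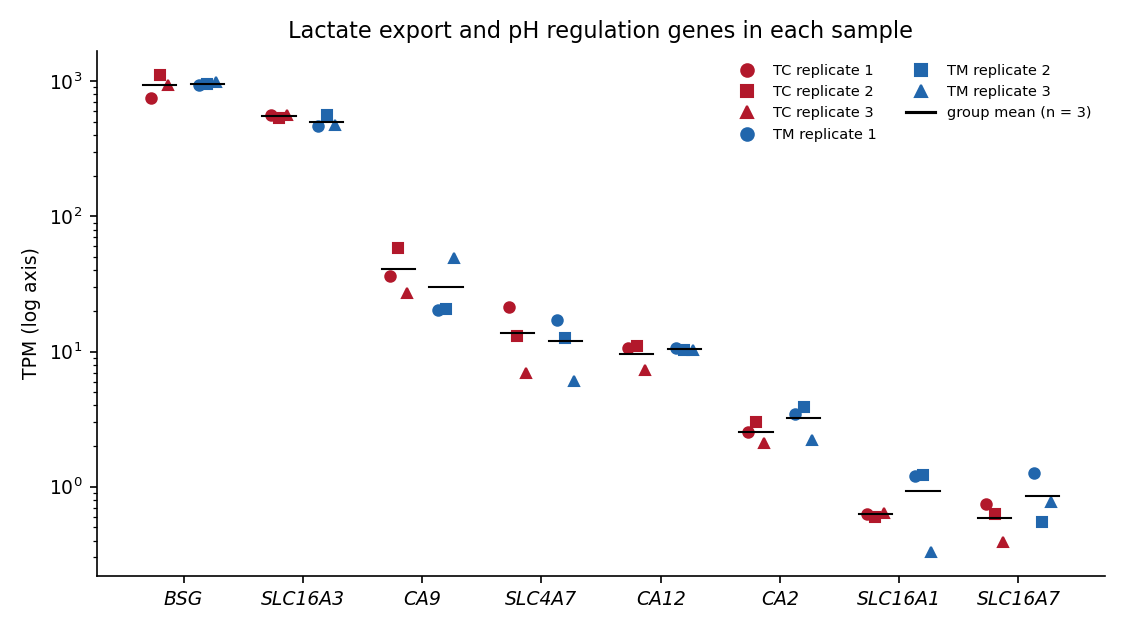
Level of each of the 8 genes in TPM (log axis) in the 3 TC samples (red) and the 3 TM samples (blue), with a marker shape for each replicate number and a line at the group mean (n = 3). BSG and SLC16A3 lay above 460 TPM in every sample, SLC16A1 and SLC16A7 lay near or under 1 TPM, and the groups overlapped for every gene.

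The levels spanned 3 ranges. BSG, at 946.9 ± 117 TPM (SD over 6 samples), and SLC16A3, at 525 ± 44.4 TPM, were above 98.9% and 98.3% of tested genes. CA9, SLC4A7 and CA12 followed at 35.5 ± 15.8, 12.9 ± 5.84 and 10.0 ± 1.38 TPM (SD over 6 samples), and CA2 at 2.88 ± 0.719 TPM. BSG exceeded SLC16A3, and SLC16A3 exceeded CA9, in 6 of 6 samples without overlap of their ranges. CA9 exceeded SLC4A7 in 6 of 6 samples although their ranges overlapped. SLC4A7 and CA12 were not ordered beyond their spread (SLC4A7 was the higher in 4 of 6 samples), nor were SLC16A1 and SLC16A7 (SLC16A1 was the higher in 2 of 6). The 6 samples include both zones, so these spreads hold the zone as well as the mouse.

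SLC16A3 (ENSG00000141526; chromosome 17, 82228397 to 82261129, plus strand; GENCODE v29 on GRCh38) encodes MCT4. It was the monocarboxylate transporter gene with by far the most RNA in these tumors. Its values for replicates 1, 2 and 3 were 562, 531 and 560 TPM in TC against 469, 558 and 471 TPM in TM, and values below follow the same order of replicates. The TM samples 1 and 3 lay below every TC sample, and TM replicate 2 lay within the TC range. The means were 551 ± 17.3 TPM in TC and 499 ± 51.2 TPM in TM (± SD, n = 3), for a log2 difference of 0.15 (SE 0.12, 95% interval -0.13 to 0.42, limma adjusted p = 0.615). It was the steadiest of the 8 genes, with a highest value 1.2 times its lowest. Of the summed TPM of SLC16A1, SLC16A3 and SLC16A7, SLC16A3 made up 99.5% to 99.8% in every sample. This share was 99.76%, 99.77% and 99.82% in TC against 99.48%, 99.68% and 99.77% in TM, with overlapping groups. Over all 14 SLC16 genes listed its share was 97.88%, 97.88% and 98.48% in the TC samples against 96.86%, 97.4% and 96.44% in the TM samples, without overlap. The difference in this wider share was not tested. Its sum also holds genes not known to carry lactate, such as SLC16A5, with means of 4.33 TPM in TC and 7.03 TPM in TM. The gene lies opposite to a part of CSNK1D, which reached 150 TPM, and whether counting used the strand is not given in the sources used here.

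RefSeq (GRCh38.p14) gives SLC16A3 5 start sites, of which 1 holds the motif ACGTG in the bases before it. ACGTG and GCGTG are the forms of the core that hypoxia-inducible factors bind. The 100 bases before that start are shown because they carry the motif on the plus strand in 2 copies (capitals), at chr17:82228942-82229041 (+), inside the gene as GENCODE v29 draws it because other transcripts begin upstream.
SLC16A3: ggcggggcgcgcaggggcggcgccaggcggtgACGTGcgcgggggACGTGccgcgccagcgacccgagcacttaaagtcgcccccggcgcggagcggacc
On either strand, 18.5% of 35116 promoters held ACGTG in the 250 bases before the start, and 32.2% held GCGTG. Both motifs hold a CG pair, and the SLC16A3 start shown had 43 such pairs, more than 99.0% of promoters (median 11). The shares over all promoters are matched neither for CG pairs nor for the 5 starts of the gene. A match is a description of these letters and not of binding, which was not measured.

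SLC16A1 (ENSG00000155380; chromosome 1, 112911847 to 112957013, minus strand) encodes MCT1. It was near the lower limit of what was tested. Its values were 0.63, 0.60 and 0.64 TPM in TC and 1.21, 1.23 and 0.33 TPM in TM. The TC samples were close to each other, TM replicates 1 and 2 lay at about the same higher level, and TM replicate 3 was the lowest of all 6. Because only 2 samples reached 1 TPM it was left out of the fit reported, and in the fit without a filter its log2 difference was -0.20 (SE 0.25, limma adjusted p = 0.750). The 2 high samples were those with high muscle markers, and the part of host muscle RNA in these values was not tested. SLC16A3 exceeded SLC16A1 by 892, 885 and 875 times in TC and by 387, 454 and 1430 times in TM.

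SLC16A7 (ENSG00000118596; chromosome 12, 59596067 to 59789855, plus strand) encodes MCT2, a high-affinity transporter. Its values were 0.74, 0.63 and 0.39 TPM in TC against 1.26, 0.55 and 0.77 TPM in TM. The highest value was again in TM replicate 1, but TM replicate 2 was below 2 of the TC samples, unlike SLC16A1. In the fit without a filter the log2 difference was -0.22 (SE 0.21, limma adjusted p = 0.688).

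BSG (ENSG00000172270; chromosome 19, 571277 to 583493, plus strand) encodes basigin, also called CD147, the chaperone of MCT1 and MCT4. The TC samples held 754, 1121 and 946 TPM and the TM samples 932, 947 and 982 TPM. The lowest and the highest samples were both in TC, and the 3 TM samples lay between them. The means of 940 ± 183 and 954 ± 25.6 TPM (SD, n = 3) gave a log2 difference of -0.039 (SE 0.16, 95% interval -0.40 to 0.32, limma adjusted p = 0.939), which became 0.14 after median-of-ratios rescaling and 0.11 without TC replicate 1. Transcripts of BSG outnumbered those of SLC16A3 by 1.34, 2.11 and 1.69 times in TC and by 1.99, 1.70 and 2.08 times in TM. Of the other 2 chaperones in the family, NPTN (neuroplastin) was at 97.9 ± 17.5 TPM in TC and 105 ± 4.86 TPM in TM (± SD, n = 3), a TC minus TM difference of -0.11 in log2 units (SE 0.15, limma adjusted p = 0.785), and this sign turned after median-of-ratios rescaling (0.067). EMB (embigin), named after its values were seen, was at 12.5, 8.71 and 6.15 TPM in TC and 8.77, 6.57 and 3.99 TPM in TM, with overlapping groups.

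The genes around lactate and pyruvate were counted as a list of 22, of which 9 were tested and 10 were under 1 TPM in every sample. Of the 9, 0 were called, 1 had an unadjusted p-value under 0.05 and was lower in TC (limma), 2 lay wholly higher and 1 wholly lower in TC (beside 14.2%, 3.28% and 18.9% of all tested genes in that order), and the median log2 difference was -0.051 against -0.14 for all genes, and 0.13 after median-of-ratios rescaling. The 2 higher were LDHA and MPC2, and the lower was SLC16A5. LDHA, the lactate dehydrogenase subunit that favors lactate formation, was at 1868, 1707 and 1584 TPM in TC and 1435, 1415 and 1507 TPM in TM. Every TC sample was above every TM sample, with means of 1720 ± 142 and 1452 ± 48.7 TPM (± SD, n = 3), a TC minus TM difference of 0.24 in log2 units (SE 0.12, limma adjusted p = 0.392). LDHB, the subunit more common in oxidative tissue, was at 747 ± 69.3 and 774 ± 72.1 TPM (± SD, n = 3), a TC minus TM difference of -0.051 in log2 units (SE 0.13, limma adjusted p = 0.890), and 0.13 after median-of-ratios rescaling. SLC16A5, an SLC16 transporter named MCT6 that is not known to carry lactate, was at 5.01, 4.0 and 3.99 TPM in TC and 6.53, 7.08 and 7.47 TPM in TM (log2 difference -0.59, SE 0.21, limma adjusted p = 0.207). MPC2, a subunit of the mitochondrial pyruvate carrier named here after its values were seen, was at 16.2 ± 1.10 and 12.8 ± 0.766 TPM (SD, n = 3, limma adjusted p = 0.402). The lactate receptor gene HCAR1 and the sodium-coupled lactate transporter genes SLC5A8 and SLC5A12 did not exceed 0.02 TPM in any sample.

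Ratios of gene pairs within a sample were compared next, 6 in all, as differences of log2(TPM + 1) by exact permutation tests. With the added 1 TPM, a ratio that holds a low gene still depends on the scaling. For these tests the smallest possible p-value with 3 samples against 3 is 0.1. The mean log2 ratio of LDHA to LDHB was 1.2 ± 0.118 among TC samples against 0.91 ± 0.121 among TM samples (SD, n = 3), which differed by 0.29 (two-sided exact p = 0.1, 0.60 after Benjamini-Hochberg adjustment over the 6 ratios). On the linear scale LDHA exceeded LDHB by 2.28, 2.51 and 2.13 times in TC and by 1.73, 2.04 and 1.89 times in TM, without overlap. The groups overlapped for the other 5 ratios. Their differences were 0.35 for SLC16A3 to SLC16A1, 0.19 for SLC16A3 to BSG, -0.17 for SLC16A1 to BSG, 0.59 for CA9 to CA12 and 0.30 for CA9 to SLC4A7, with two-sided exact p-values of 0.4, 0.6, 0.6, 0.3 and 0.8 and adjusted values of 0.72 for the first 4 and 0.80 for the last. The ratio of SLC16A1 to BSG was -0.26 after median-of-ratios rescaling and -0.29 with a pseudocount of 0.1, and that of SLC16A3 to SLC16A1 was 0.45 and 0.47. The ratio of CA9 to SLC4A7 became -0.21 without TM replicate 1.

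CA9 (ENSG00000107159; chromosome 9, 35673856 to 35681159, plus strand) encodes CA IX, the carbonic anhydrase of the outer cell surface that is widely used as a marker of hypoxia. Its level was 36.5, 58.5 and 27.3 TPM in TC against 20.4, 20.8 and 49.5 TPM in TM. All TC samples were above TM replicates 1 and 2, but TM replicate 3 was above 2 of the TC samples and was second only to TC replicate 2. The means were 40.8 ± 16.1 and 30.2 ± 16.7 TPM (± SD, n = 3), for a log2 difference of 0.48 (SE 0.38, 95% interval -0.40 to 1.35, limma adjusted p = 0.608). The interval was wide enough to hold both a negative difference and a positive one above 1 on the log2 scale. In bulk tissue, fewer cells that express a gene and less of its RNA per cell cannot be told apart.

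The sign of the CA9 difference rested on the margin samples used. Without TM replicate 3 the log2 difference was 0.88 (SE 0.29, limma unadjusted p = 0.0144, adjusted p = 0.161), and CA9 was then the only 1 of the 6 tested genes at an unadjusted p-value under 0.05. Without TM replicates 1 and 2, the samples high in muscle and fibroblast markers, it was -0.34 (limma adjusted p = 0.740), with a single margin sample left whose spread had to be taken from the other group. That fit was added after the data were seen. Whether the host tissue in these 2 samples has a part in the CA9 values was not tested.

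The 100 bases before the CA9 start in RefSeq (GRCh38.p14) are printed because they hold the motif ACGTG, here on the minus strand and so read as CACGT (capitals), 18 bases before the start. They lie at chr9:35673828-35673927 (+), and GENCODE v29 draws the gene from within this stretch.
CA9: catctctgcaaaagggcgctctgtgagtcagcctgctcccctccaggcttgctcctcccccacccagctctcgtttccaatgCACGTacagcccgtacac
The RefSeq promoter table held 6 of the 8 genes (not CA2 or SLC16A1). CG pairs numbered 5 at the CA9 start, more than in 34.3% of promoters. At the BSG start with ACGTG they numbered 50, more than in 99.9%. ACGTG was found before the start of CA9, before 1 of 5 starts of SLC16A3 and 1 of 2 of BSG, and not in the 250 bases before the listed starts of CA12, SLC16A7 and SLC4A7. GCGTG, the other form of the core, was found there in 1 copy for CA12, before 1 of 2 starts of SLC4A7 (2 copies), 1 of 2 of BSG (4 copies, the same start) and 2 further starts of SLC16A3 (3 copies and 1), and not for CA9 or SLC16A7.

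To see whether CA9 varied alone, 13 genes known to be induced by hypoxia were set beside it. All 13 were tested, 0 were called, 2 had an unadjusted p-value under 0.05 and were higher in TC (limma), beside 1.93% of all tested genes, and 11 of 13 differences were positive with a median of 0.17, against -0.14 for all genes. Their mean log2(TPM + 1) was 6.23, 6.22 and 5.69 in the TC samples against 5.50, 5.61 and 6.29 in the TM samples. TM replicate 3 thus had the highest mean of all 6 samples in these genes, close to TC replicates 1 and 2. It did not have the highest value in every gene. In CA9 it was the second highest, and TC replicate 3 was the lowest of TC in both this mean and CA9. Over the 6 samples Pearson's r with CA9 ran from 0.291 (KDM3A, a histone demethylase) to 0.989 (ANGPTL4, a secreted lipase inhibitor), and it is given as a description of 6 points that share the zone and the host tissue. The 2 of this list with an unadjusted p-value under 0.05 were BNIP3 (log2 difference 0.60, limma adjusted p = 0.168) and ANKRD37 (0.75, limma adjusted p = 0.283). The 3 most abundant included NDRG1 at 0.17 and SLC2A1, the glucose transporter GLUT1, at 0.10 (limma adjusted p = 0.885 and 0.806). Without TM replicates 1 and 2 the difference was 0.22 for BNIP3, 0.078 for ANKRD37 and -0.73 for NDRG1.

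**Figure D2:**
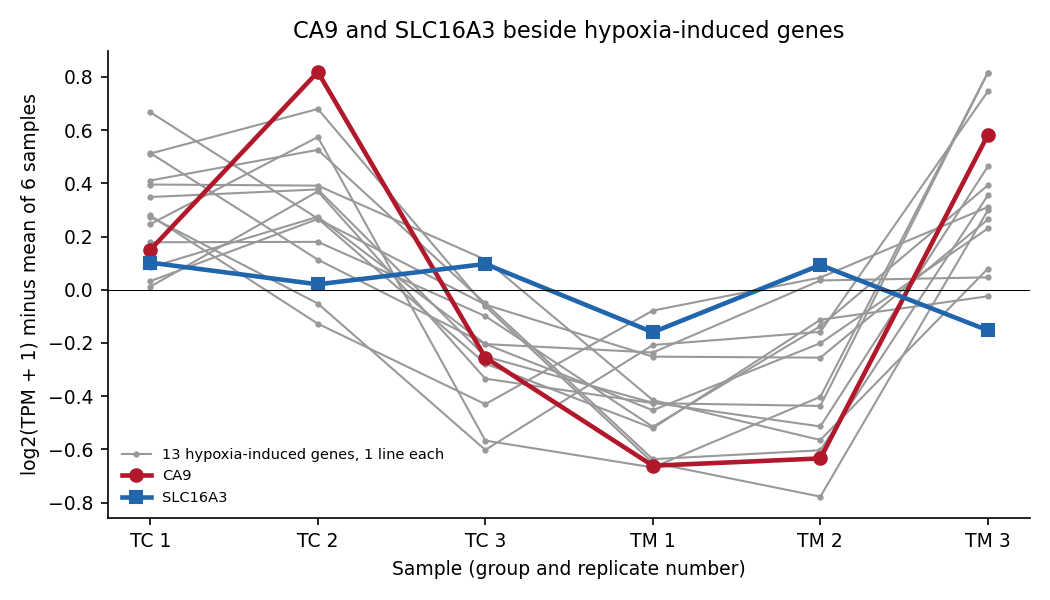
Deviation of log2(TPM + 1) from the gene's own mean over the 6 samples (y axis) for CA9 (red), SLC16A3 (blue) and 13 hypoxia-induced genes (grey), with the samples along the x axis and lines joining the values of a gene. CA9 and most grey lines were high in TC replicates 1 and 2 and TM replicate 3 and low in TM replicates 1 and 2, while SLC16A3 stayed within 0.2 of its mean.

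Among 9726 genes with a mean of at least 5 TPM, those whose values were most like CA9 over the 6 samples were ALDOC, a glycolytic aldolase (r = 0.990), ANGPTL4 (r = 0.989) and UBA6-DT, a transcript divergent from UBA6 (r = 0.979). ALDOC was at 137, 180 and 128 TPM in TC against 101, 106 and 166 TPM in TM, the same order of samples as CA9. For SLC16A1 the most alike were TFPT (r = 0.999), SLC25A4, the ADP/ATP carrier that is abundant in muscle and heart (r = 0.988), and NCS1, a calcium sensor (r = 0.987). SLC25A4 was at 31.2, 29.4 and 29.4 TPM in TC against 37.6, 39.3 and 25.9 TPM in TM. These values describe 6 points that share the zone and the host tissue, and nothing is read from them about shared control.

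CA12 (ENSG00000074410; chromosome 15, 63321378 to 63382161, minus strand) encodes CA XII, a surface enzyme like CA IX that is common in estrogen receptor-positive tumors. Its level was 10.7, 11.0 and 7.25 TPM in TC against 10.6, 10.3 and 10.3 TPM in TM. The 3 TM samples and 2 of the TC samples lay within a narrow range, and TC replicate 3 was lower. The means were 9.64 ± 2.08 and 10.4 ± 0.170 TPM (SD, n = 3), with a log2 difference of -0.12 (SE 0.21, 95% interval -0.60 to 0.36, limma adjusted p = 0.840) that became 0.045 after median-of-ratios rescaling, 0.083 after quantile normalization and 0.056 without TC replicate 3. CA9 exceeded CA12 by 3.41, 5.33 and 3.77 times in TC and by 1.92, 2.01 and 4.83 times in TM.

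CA2 (ENSG00000104267; chromosome 8, 85463852 to 85481493, plus strand) encodes the fast cytosolic enzyme CA II. The values were 2.53, 3.0 and 2.12 TPM in TC against 3.48, 3.91 and 2.21 TPM in TM. TM replicates 1 and 2 were the highest and TM replicate 3 lay within the TC range, the same split of the margin samples as for SLC16A1. The means were 2.55 ± 0.440 and 3.20 ± 0.884 TPM (± SD, n = 3), a TC minus TM difference of -0.23 in log2 units (SE 0.26, 95% interval -0.81 to 0.36, limma adjusted p = 0.730), and the difference was -0.094 after median-of-ratios rescaling, -0.045 after quantile normalization and 0.14 without TM replicates 1 and 2. The 9 red blood cell markers summed to 6.93, 1.10 and 3.86 TPM in TC and 0.29, 4.82 and 0.49 TPM in TM, with HBA2, HBD, AHSP and EPB42 listed at 0 in all samples. The part of host cells in the CA2 values was not tested. CA3, the carbonic anhydrase of skeletal muscle (named after its values were seen), was at 0.18 and 0.24 TPM in TM replicates 1 and 2 and at 0.04 to 0.27 TPM in the other samples.

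**Figure D3:**
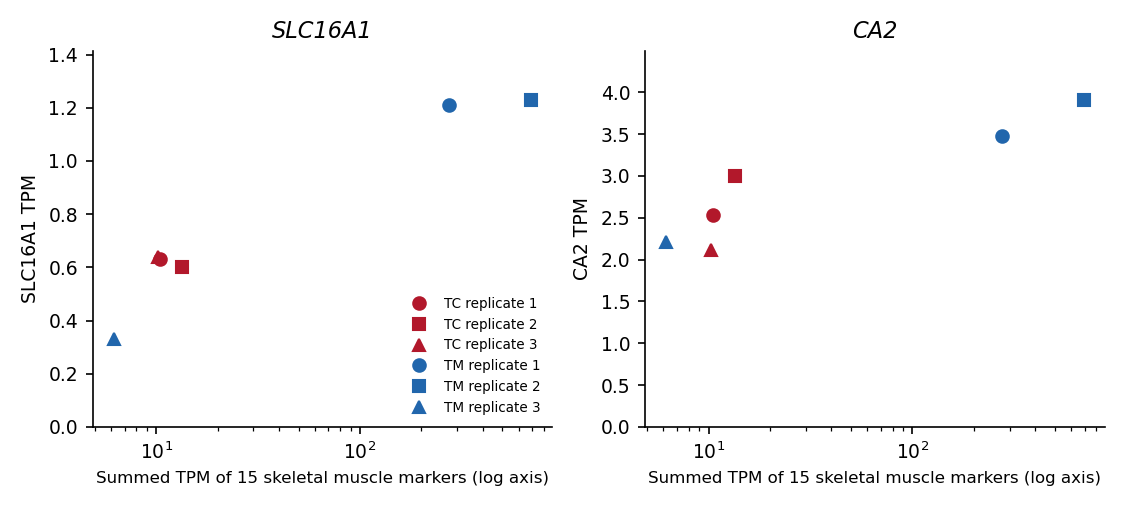
SLC16A1 (left) and CA2 (right) in TPM against the summed TPM of 15 skeletal muscle markers (log axis) in each TC (red) and TM (blue) sample. TM replicates 1 and 2, with marker sums of 274.8 and 693.8 TPM, held the highest values of both genes, and TM replicate 3, with 6.18 TPM, lay at or near the bottom.

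Of the 12 other carbonic anhydrase genes, 9 were under 1 TPM in every sample, 3 were tested, 0 were called and 0 had an unadjusted p-value under 0.05 (limma), with a median log2 difference of 0.19. CA11, a member without catalytic activity, was at 19.1 ± 2.70 TPM in TC and 15.3 ± 6.41 TPM in TM (± SD, n = 3), a TC minus TM difference of 0.37 in log2 units (SE 0.28, limma adjusted p = 0.586), and its sign turned without TM replicates 1 and 2 (-0.24). The cytosolic CA13 was at 3.99 ± 0.644 and 5.45 ± 0.811 TPM (± SD, n = 3, difference -0.37 in log2 units, limma adjusted p = 0.483) without overlap of the groups, and the mitochondrial CA5B had a log2 difference of 0.19 (limma adjusted p = 0.823). CA9 alone made up 48.8%, 57.7% and 44.7% of the summed TPM of the 15 carbonic anhydrase genes in TC and 36.5%, 38.9% and 53.5% in TM. Its share, like its level, was high in TM replicate 3 and low in TM replicates 1 and 2. CA9 is itself a large part of that sum, so the share and the level are not independent.

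SLC4A7 (ENSG00000033867; chromosome 3, 27372721 to 27484420, minus strand) encodes NBCn1, an acid extruder known in breast cancer. The values were 21.4, 13.1 and 6.97 TPM in TC against 17.0, 12.6 and 6.10 TPM in TM. The spread within each group was about 3-fold, and the 2 groups covered nearly the same range. The means were 13.8 ± 7.22 and 11.9 ± 5.50 TPM (SD, n = 3), with a log2 difference of 0.18 (SE 0.44, 95% interval -0.83 to 1.19, limma adjusted p = 0.889). It was -0.18 without TC replicate 1 and -0.20 without TM replicate 3. CA9 exceeded SLC4A7 by 1.71, 4.48 and 3.92 times in TC and by 1.19, 1.65 and 8.12 times in TM, the widest spread of the 6 ratios.

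Other genes that move bicarbonate or protons were counted as a list of 28, of which 15 were tested. The number called was 0, but 13 of the 15 differences were negative, at an unadjusted p-value under 0.05 (limma) 5 were lower in TC, beside 14.2% of all tested genes, and 0 were higher, and 7 of 15 lay wholly lower in TC, beside 18.9% of all tested genes. The median log2 difference was -0.35 against -0.14 for all genes, and it was -0.18 after median-of-ratios rescaling and -0.19 after quantile normalization. SLC4A2, the anion exchanger AE2, which takes bicarbonate out of the cell, was at 89.6, 117 and 106 TPM in TC and 161, 145 and 135 TPM in TM. All TC samples were below all TM samples, with means of 104 ± 13.7 and 147 ± 13.4 TPM (± SD, n = 3), a TC minus TM difference of -0.50 in log2 units (SE 0.14, limma adjusted p = 0.144). SLC26A6, another anion exchanger, was at 17.8, 16.9 and 16.4 TPM in TC and 28.4, 27.3 and 63.8 TPM in TM (log2 difference -1.07, SE 0.30, limma adjusted p = 0.145). Its TM replicate 3 was far above the other TM samples, and without it the difference was -0.68. With that sample alone in TM it was -1.85, a value from a fit whose spread within groups came from TC only and in which 195 of all genes passed the threshold.

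The remaining 3 of the 5 were SLC4A11, a proton-coupled transporter (log2 difference -0.84, limma adjusted p = 0.186), AHCYL1 (IRBIT), a regulator of bicarbonate cotransporters (-0.38, limma adjusted p = 0.268), and the anion exchanger gene SLC4A3 (-0.56, limma adjusted p = 0.288). Of the 3 most abundant genes in the list, SLC9A3R2, a scaffold of sodium/proton exchangers, was at 77.8 ± 7.12 TPM in TC and 77.1 ± 2.46 TPM in TM (± SD, n = 3), a TC minus TM difference of 0.011 in log2 units (SE 0.13, limma adjusted p = 0.981), and the others were SLC4A2 and AHCYL1. With all samples SLC4A7 differed in sign from most of the listed genes. Its own sign turned without TC replicate 1 (-0.18) or without TM replicate 3 (-0.20), and the contrast with the list was not tested.

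**Figure D4:**
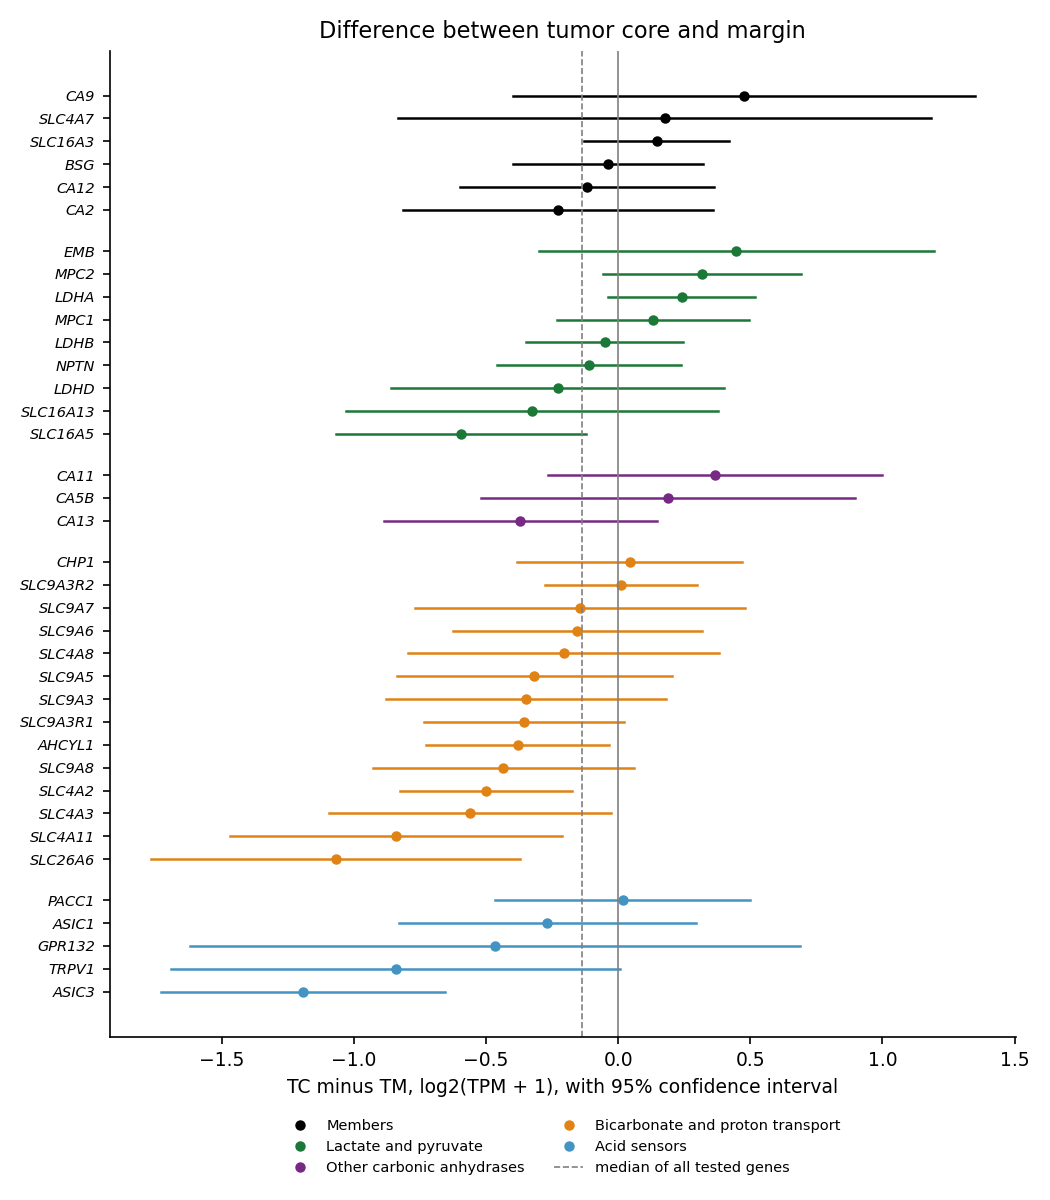
Difference of log2(TPM + 1), TC minus TM, with its 95% interval from limma (x axis) for the 6 tested genes (black) and tested genes of 4 related lists (colors), with the median of all tested genes as a dashed line. The intervals of all 6 black genes included 0, and most bicarbonate and proton transport genes (orange) lay to the left.

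The cell surface receptors and channels that sense acid were a list of 10 genes, of which 5 were tested and 0 were called. The differences were negative in 4 of 5, with a median of -0.47 against -0.14 for all genes. This median was -0.31 after median-of-ratios rescaling and -0.28 after quantile normalization. At an unadjusted p-value under 0.05 (limma), 1 gene was lower in TC, beside 14.2% of all tested genes. That gene was ASIC3, a proton-gated sodium channel, at 1.49, 0.99 and 1.39 TPM in TC and 3.49, 4.77 and 4.46 TPM in TM. The groups did not overlap, and the log2 difference of -1.19 (SE 0.23) had the smallest adjusted p-value among the genes examined here (limma adjusted p = 0.0843). GPR132, a receptor linked to acid sensing, was at 9.43, 14.3 and 5.63 TPM in TC and 15.3, 5.56 and 25.2 TPM in TM (limma adjusted p = 0.715), and PACC1, the proton-activated chloride channel, was at 7.52 ± 0.226 and 7.5 ± 1.44 TPM (SD, n = 3, limma adjusted p = 0.982). The proton-sensing receptor genes GPR4 and GPR65 were under 1 TPM in every sample.

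Markers of other cells were described by their medians and sums. Of 15 skeletal muscle markers 5 were tested and all 5 differences were negative, with a median of -2.78 on the log2 scale, and of 10 fibroblast markers 5 were tested and all 5 were negative, with a median of -1.28. The number called was 0 in both lists. The medians were 0.040 for 3 of 9 endothelial, -0.13 for 3 of 10 macrophage, -0.11 for 1 of 8 adipocyte and 0.74 for 1 of 9 erythroid markers tested, -0.0062 for 8 of 8 markers of MDA-MB-231, 0.085 for 7 of 8 epithelial markers and -0.44 for 3 of 5 hormone receptor and luminal markers. The signs of the macrophage, adipocyte and MDA-MB-231 medians turned under both scalings. No step that parts mouse from human reads was described, so mouse RNA can add to a human gene where the sequences are alike. Among the 8 genes, SLC16A1 and CA2 had their highest values in the samples high in muscle and fibroblast markers, CA9 had its lowest values there, and SLC16A3, SLC16A7, BSG, CA12 and SLC4A7 had at least 1 of these 2 samples within their TC range.

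**Figure D5:**
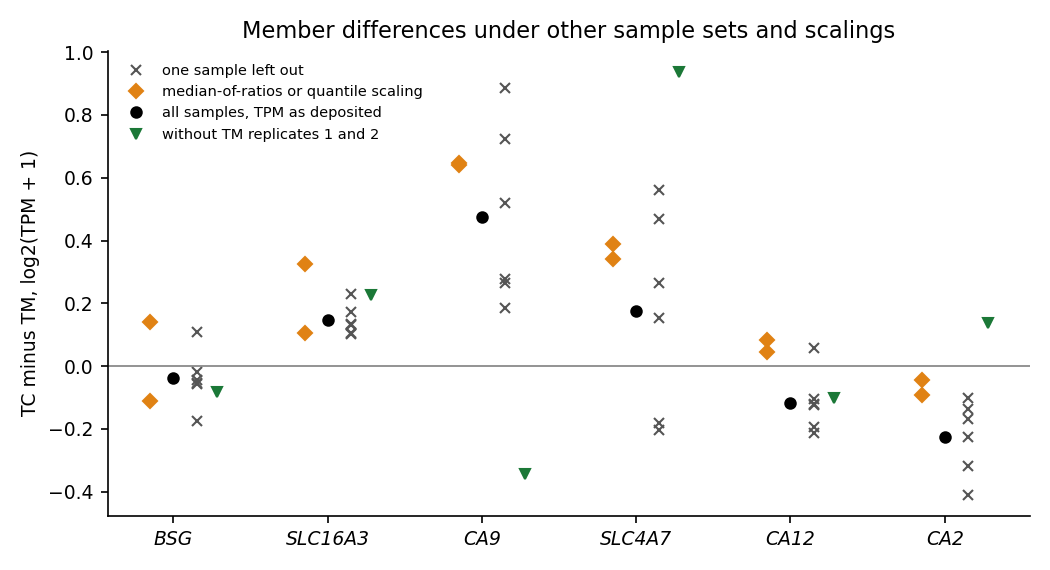
Log2 difference TC minus TM (y axis) of the 6 tested genes with all samples and TPM as deposited (black), with median-of-ratios or quantile scaling (orange), with each sample left out in turn (crosses) and without TM replicates 1 and 2 (green). SLC16A3 stayed above 0 under the settings drawn, whereas CA9 and CA2 changed sign without TM replicates 1 and 2, and BSG, CA12 and SLC4A7 changed sign under another scaling or without a single sample.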

How the data were processed

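RNA-seq of 3 TC and 3 TM samples was analysed, grouped by the sample titles. The authors deposited TPM, for which they trimmed reads with SeqPrep and Sickle, aligned them with HISAT2, assembled with StringTie and quantified with RSEM. The submitters' processing notes name hg38. TPM keeps no depth, so depth and counting error are unknown, and the count model of the study could not be run. The matrix held 60930 features, and the 259 unannotated loci were left out. Columns of values not matched to a sample numbered 0. Of 60671 annotated genes, 60401 had a symbol and 96.3% were in GENCODE v29 (GRCh38), which gave positions.

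Values were transformed as log2(TPM + 1), genes that reached 1 TPM in 3 or more samples were tested, and TC minus TM was fitted with limma 3.58.1 in R 4.3.3 (mean-variance trend, two-sided, Benjamini-Hochberg over 13861 genes). This scale understates differences of low genes. The fit was tested on simulated data with known differences. Motifs were searched on both strands of RefSeq promoters. Tables and plots were made with Python 3.11.15, pandas 2.3.3 and matplotlib 3.10.9.

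The genes and lists (lactate and pyruvate handling, other carbonic anhydrases, bicarbonate and proton transport, acid sensors, hypoxia, cell markers) were chosen with earlier results of these data known. Named genes are all 8 members and, from the related lists, those at an unadjusted p-value under 0.05 and the 3 of highest mean TPM, and for CA9 and SLC16A1 the 3 genes of highest Pearson r. Others are marked, and some list genes are not reported here by name. Alternatives were another pseudocount (0.1), no filter, a mean of at least 5 TPM, quantile and median-of-ratios scaling, removal of mitochondrially encoded genes, inclusion of unannotated loci, a replicate block, limma without a trend or robust, and each sample left out. Leaving out TM replicates 1 and 2 together was added after the data were seen. The p-values measure the spread between samples, which may share mice.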

Additional observations from a re-analysis of the deposited data

How the results depend on the processing

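Of the members fitted, 0 were called with each of the 17 alternatives (SLC16A1 and SLC16A7 entered only the fit without a filter, and CA2 dropped out at a mean of at least 5 TPM), and the number at an unadjusted p-value under 0.05 was 0 except without TM replicate 3, where it was 1 (leaving out samples, 0 to 1). The number of all genes called, 19 in the fit reported, was less stable: 7 with a pseudocount of 0.1, 1 without a filter on low values, 4 after quantile normalization, 6 after median-of-ratios rescaling, 12 without a trend, 47 with robust moderation, 1 to 17 when a sample was left out, and 195 without TM replicates 1 and 2. With the replicate number as a block (replicate block) it was 1. Same-numbered deviations from the group means correlated at r = 0.211, -0.121 and -0.165. With 3 samples per group, these values cannot show whether same-numbered samples shared a mouse. The block changed no call among the 6 tested genes, and for SLC4A7 it lowered the SE from 0.440 to 0.176 (limma adjusted p = 0.687).

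Differences that changed sign were these. After median-of-ratios rescaling they were 0.141 for BSG, 0.0446 for CA12, 0.128 for LDHB and 0.0669 for NPTN, and after quantile normalization 0.0829 for CA12. Without mitochondrially encoded genes they were -0.0415 for SLC9A3R2 and -0.0301 for PACC1. Without TM replicates 1 and 2 they were -0.344 for CA9, 0.138 for CA2, -0.237 for CA11 and -0.731 for NDRG1, and SLC26A6 passed the threshold (-1.85). With a sample left out the ranges were -0.213 to 0.0563 for CA12, -0.175 to 0.110 for BSG, -0.202 to 0.562 for SLC4A7, -0.129 to 0.0143 for LDHB, -0.241 to 0.0137 for NPTN, -0.0337 to 0.433 for CA5B, -0.0569 to 0.0719 for SLC9A3R2, -0.133 to 0.0943 for PACC1, -0.122 to 0.620 for NDRG1, -0.00854 to 0.231 for SLC2A1 and -0.206 to 1.09 for the ratio of CA9 to SLC4A7. The cause was not tested. SLC16A3 kept its sign in all 17 alternatives (0.093 to 0.326). With 3 samples per group and unknown depth, differences can be missed here. The intervals were not adjusted for the number of genes. A gene whose interval excluded 0, such as SLC26A6 (-1.77 to -0.37), could thus still not be called.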
